A study of Mus musculus with 384 samples.

Results

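Esrrg is an orphan nuclear receptor, a transcription factor built like the hormone receptors but with no established natural ligand. Its messenger RNA was followed across single retinal cells together with 7 related receptors: Esrra and Esrrb of the same estrogen-related family, Rora and Rorb of the retinoid-related orphan family, and Nr2f1, Nr2f2 and Nr2f6 of the COUP-TF family. These 8 genes are among 32813 genes in the expression table. Esrrg was chosen because its level graded over 3 groups of cells, so its levels in these groups are a description and carry no test. The groups were the Ddit4l-only, Sox6-only and Vsx1-only cells, each with exactly 1 of these genes at 20 TPM or more (a level scaled for transcript length and depth). They were taken among cells with at least 3000 genes at an expected count of 1 or more. Ddit4l is an inhibitor of mTOR signalling, Sox6 is a transcription factor of the SRY-box family, and Vsx1 is a homeobox transcription factor of cone bipolar cells. By construction these 3 genes differ between the groups.

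The cells were sorted for yellow fluorescent protein from the retinas of 2 mice at postnatal day 17, one by one into the wells of 96-well plates, and their full-length cDNA was read by Smart-seq2. Both mice carried the Cre allele Kcng4tm1.1(cre)Jrs, in which the locus of the potassium channel subunit Kcng4 drives Cre recombinase, and the reporter Thy1-stop-YFP Line#1, so a cell was labelled if Kcng4 was or had been active and the Thy1-based transgene was expressed. There was no treatment and no other genotype. The retinas are named 1la and 1Ra (mouse 1) and 2la and 2Ra (mouse 2) with a suffix that the labels do not explain, and each is a separate set of wells, so a difference between retinas or mice cannot be told apart from one between sets of wells.

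Of 383 cells with values, 321 were kept and 270 of them fell into the 3 groups: 59 Ddit4l-only, 151 Sox6-only and 60 Vsx1-only cells. The Ddit4l-only group held 10, 19, 20 and 10 cells of retinas 1la, 1Ra, 2la and 2Ra, the Sox6-only group 33, 30, 46 and 42, and the Vsx1-only group 16, 18, 14 and 12. A further 18 kept cells passed 20 TPM for more than 1 marker and 33 for none. Kept cells had 203657 to 1945582 counts. Of 13 bipolar cell markers, 10 in Ddit4l-only, 12 in Sox6-only and all 13 in Vsx1-only cells reached 1 TPM in most of the cells, Otx2, Grm6 and Trpm1 among them in each group. Transcripts of rods, the most abundant retinal cells, were also present: the summed level of 8 rod markers ranged from 11.4 to 11642 TPM (median 65.2) in Ddit4l-only, from 8.25 to 14043 TPM (median 128) in Sox6-only and from 9.47 to 21446 TPM (median 236) in Vsx1-only cells. It reached 1000 TPM in 11 of 59, 43 of 151 and 18 of 60 cells of these groups.

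Nuclear receptors bind DNA through a domain of a pair of zinc fingers and, in most cases, change transcription in response to a small molecule bound by a second domain. The estrogen-related receptors act without a bound hormone, lean on the coactivators of the PGC-1 family and are known for driving genes of mitochondrial energy metabolism, while the retinoid-related orphan receptors bind single half-sites, activate clock genes and compete there with the repressors Nr1d1 and Nr1d2. The COUP-TFs mostly repress and are known in the developing mouse eye for patterning. In the mouse retina, Rorb is needed for rods and for amacrine and horizontal cells, and Esrrb is known from rods.

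The kinship of the 8 genes can be read from the coding bases of the first zinc finger, shown because this finger touches the DNA half-site. Each line runs from the codon of its first cysteine over 75 bases, the capitals mark the codons of the P-box (the stretch that reads the half-site), and the bases were read from GENCODE M21 transcripts (GRCm38).

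Esrra: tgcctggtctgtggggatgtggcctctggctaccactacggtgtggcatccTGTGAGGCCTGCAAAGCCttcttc
Esrrb: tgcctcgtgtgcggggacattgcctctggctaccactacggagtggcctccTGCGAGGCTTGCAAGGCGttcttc
Esrrg: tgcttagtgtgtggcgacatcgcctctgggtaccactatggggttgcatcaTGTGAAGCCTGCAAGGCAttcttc
Rora: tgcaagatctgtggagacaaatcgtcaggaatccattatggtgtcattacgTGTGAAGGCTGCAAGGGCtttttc
Rorb: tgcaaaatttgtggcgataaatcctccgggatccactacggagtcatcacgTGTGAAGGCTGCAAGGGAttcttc
Nr2f1: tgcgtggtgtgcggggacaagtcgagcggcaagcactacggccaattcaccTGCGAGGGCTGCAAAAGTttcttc
Nr2f2: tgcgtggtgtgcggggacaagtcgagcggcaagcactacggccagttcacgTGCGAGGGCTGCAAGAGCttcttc
Nr2f6: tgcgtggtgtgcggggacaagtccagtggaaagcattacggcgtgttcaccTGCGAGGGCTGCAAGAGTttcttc

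Within the COUP-TFs, Nr2f1 and Nr2f2 differed at 4 of the 75 bases, and each differed from Nr2f6 at 8. Rora and Rorb differed at 13. Esrrg differed from Esrrb and from Esrra at 15 bases, and Esrrb from Esrra at 12, against 20 to 31 bases between families. Rora and Rorb differed at 1 base of the P-box codons, and Esrrg differed from Esrra at 3 and from Esrrb at 4. These differences do not change the encoded amino acids. Esrrg also differed from Rorb at 2 of the P-box bases and from Rora at 3, so a base count over this short stretch does not sort the families. Over whole transcripts, the longest run of identical bases was 17 between Esrrg and Esrrb, 16 between Esrrg and Esrra and 59 between Nr2f1 and Nr2f2, so how the authors' counting divided reads matters most for the last pair. The genes lie on 7 chromosomes in GRCm38, Esrrg on the plus strand at chr1:187608791-188214885, Esrrb on the plus strand at chr12:86361117-86521628, Rora on the plus strand at chr9:68653786-69388246 and Rorb on the minus strand at chr19:18930605-19111196.

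Esrrg stepped down over the groups by which it was chosen. Over cells, its median was 419 TPM (range 25.5 to 1762) in Ddit4l-only, 138 TPM (0 to 669) in Sox6-only and 0.285 TPM (0 to 108) in Vsx1-only cells. It was at 20 TPM or more in 59 of 59 Ddit4l-only cells (95% exact binomial interval 93.9 to 100%), in 131 of 151 Sox6-only cells (80.3 to 91.7%) and in 8 of 60 Vsx1-only cells (5.94 to 24.6%). These intervals cover counting error only and treat cells as independent, which cells of 1 retina are not. Of all pairs of cells, a Ddit4l-only cell exceeded a Sox6-only cell in 86.4% and a Vsx1-only cell in 99.7%, and a Sox6-only cell exceeded a Vsx1-only cell in 93%. The Ddit4l-only and Sox6-only cells still overlapped, with 6 of 151 Sox6-only cells above the Ddit4l-only median and 5 of 59 Ddit4l-only cells below the Sox6-only median.

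**Figure D1:**
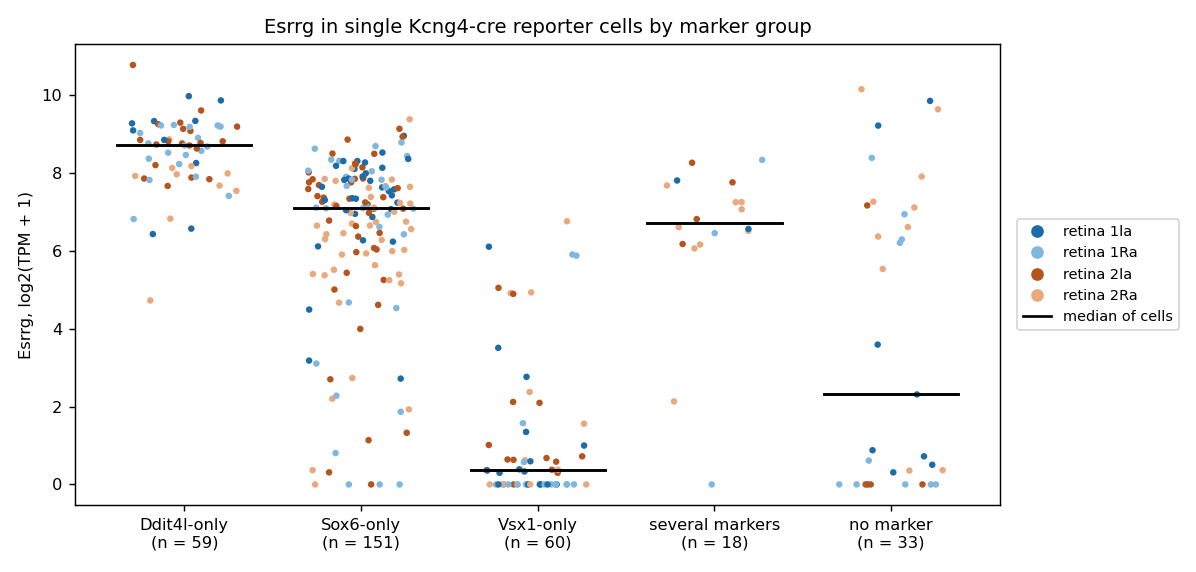
Esrrg level in each of the 321 kept cells as log2(TPM + 1), by marker group and coloured by retina, with the median of the cells as a black line. The medians step down over Ddit4l-only (419 TPM), Sox6-only (138 TPM) and Vsx1-only cells (0.285 TPM), and the 33 cells without a marker spread over the whole range.

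Counts of the cells of a group were then summed per retina and scaled to CPM (counts scaled to a common library total, comparable for 1 gene between groups). Esrrg was at 1854, 1309, 1549 and 810 CPM in Ddit4l-only cells of retinas 1la, 1Ra, 2la and 2Ra. The same retinas gave 644, 546, 560 and 384 CPM in Sox6-only cells and 17.4, 11.5, 22.3 and 62.4 CPM in Vsx1-only cells. The 3 sets of 4 values did not overlap, with retina 2Ra the lowest in Ddit4l-only and Sox6-only cells and the highest in Vsx1-only cells. Of 16431 genes in these sums, 2.34% were higher without overlap in Ddit4l-only than in Sox6-only cells, 3.4% higher in Ddit4l-only than in Vsx1-only cells and 4.55% higher (3.05% lower) in Sox6-only than in Vsx1-only cells. Nothing is read from this for Esrrg, which was chosen on these groups. Summed per mouse, Esrrg averaged 1453 ± 162 CPM in Ddit4l-only, 550 ± 94 CPM in Sox6-only and 26.9 ± 16.6 CPM in Vsx1-only cells (SD, n = 2 mice). The fitted log2 fold change was 1.40 for Ddit4l-only minus Sox6-only cells, 5.82 for Ddit4l-only minus Vsx1-only cells and 4.42 for Sox6-only minus Vsx1-only cells. Each mouse alone gave the same order, with 1.33 in mouse 1 and 1.47 in mouse 2 for Ddit4l-only minus Sox6-only cells, 6.68 and 5.12 for Ddit4l-only minus Vsx1-only cells, and 5.35 and 3.65 for Sox6-only minus Vsx1-only cells. Over the 17 alternative settings the first of these 3 comparisons ranged from 1.24 to 1.51, the second from 4.96 to 7.84 and the third from 3.65 to 6.34, with the order of the groups the same in all.

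Within a group, Esrrg correlated weakly with the marker that made it. Over 59 Ddit4l-only cells, the Pearson r of Esrrg with Ddit4l was 0.23 on log2(TPM + 1). It was 0.15 with Sox6 over 151 Sox6-only cells and -0.16 with Vsx1 over 60 Vsx1-only cells. These correlations are across cells that share library preparation and depth. On both sides of the marker threshold few cells were found: 5 cells with Sox6 between 10 and 20 TPM had a median of 73 TPM Esrrg, against 216 TPM in 12 cells with Sox6 between 20 and 50 TPM. For Ddit4l, 2 cells just under the threshold had a median of 126 TPM and the 1 cell between 20 and 50 TPM had 300 TPM. For Vsx1, 2 cells just under it had a median of 0 TPM and 2 cells just over it 15.3 TPM.

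Cells outside the 3 groups extended the picture. The 10 cells with both Ddit4l and Sox6 had a median of 115 TPM Esrrg, close to the Sox6-only median. The 6 cells with both Sox6 and Vsx1 had a median of 81.1 TPM, and the 2 cells with both Ddit4l and Vsx1 had 205 and 308 TPM. Both combinations with Vsx1 had a higher median than Vsx1-only cells. Cells with Sox6 and Vsx1 had a median of 8398.5 genes and those with Ddit4l and Vsx1 7366.5, against 6387, 6335 and 6540 in Ddit4l-only, Sox6-only and Vsx1-only cells and 5947.5 in cells with Ddit4l and Sox6. Whether such cells were doublets was not tested. Among the 33 kept cells with no marker, Esrrg ranged from 0 to 1142 TPM, and 15 cells were at 20 TPM or more. Of the 62 cells under 3000 genes, 15 were at 20 TPM or more. These cells had a median of 8838 counts, against 1065569 in kept cells. Very few reads can reach 20 TPM at such a depth, so the 2 counts are not comparable.

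The 8 Vsx1-only cells with Esrrg at 20 TPM or more had 28.8 to 108 TPM. They came from all retinas (1, 2, 2 and 3 cells of 1la, 1Ra, 2la and 2Ra) and held 31 to 656 TPM Vsx1. Rod transcripts moved with them: 5 of 18 Vsx1-only cells with a rod sum of at least 1000 TPM were among the 8, and 3 of 42 with a lower sum. The single cell at 108 TPM, from retina 2Ra, carried 38.3% of all Esrrg counts of the group. In retina 2Ra 7 of 12 Vsx1-only cells had a rod sum of at least 1000 TPM. The median Esrrg level was 250 TPM in 11 Ddit4l-only cells with a rod sum of at least 1000 TPM and 437 TPM in the other 48. Sox6-only cells differed little by rod sum, with 134 TPM in 43 such cells and 146 TPM in the other 108, and 88.4% and 86.1% of them at 20 TPM or more. Without the cells at or above that rod sum, the log2 fold change of Esrrg was 1.5 for Ddit4l-only minus Sox6-only cells, 7.84 for Ddit4l-only minus Vsx1-only cells and 6.34 for Sox6-only minus Vsx1-only cells, each larger than with them. The part of rod transcripts in the 8 Vsx1-only cells was not tested.

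Between the retinas of 1 mouse, Esrrg was lower in the Ra retina in 5 of 6 comparisons. The Ra to la ratio of CPM was 0.706 in mouse 1 and 0.523 in mouse 2 in Ddit4l-only cells, and 0.848 and 0.687 in Sox6-only cells. In Vsx1-only cells it was 0.664 in mouse 1 and 2.79 in mouse 2. The median share of mitochondrial counts also differed between these sets of wells, at 4.26% in 1Ra and 2.06% in 1la, and at 4.88% in 2Ra and 2.14% in 2la. Its part in the Esrrg difference was not tested, and a difference between retinas cannot be told apart from one between sets of wells.

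The closest relatives of Esrrg were found in few cells. Esrra, the member of the family most tied to mitochondrial genes, was at 20 TPM or more in only 19 of 321 kept cells, with 2 of 59, 9 of 151 and 4 of 60 cells in the Ddit4l-only, Sox6-only and Vsx1-only groups. Summed per retina it was at 0, 4.30, 0.949 and 1.35 CPM in Ddit4l-only cells of 1la, 1Ra, 2la and 2Ra. It was at 2.88, 3.53, 9.56 and 4.49 CPM in Sox6-only cells and at 1.64, 5.4, 2.14 and 0 CPM in Vsx1-only cells. The groups overlapped, and the adjusted p of edgeR's quasi-likelihood test, corrected over 16646 genes with the Benjamini-Hochberg method, was 0.759, 0.953 and 0.855 in the Ddit4l-only minus Sox6-only, Ddit4l-only minus Vsx1-only and Sox6-only minus Vsx1-only comparisons. In Ddit4l-only cells 1 cell carried 59% of its counts.

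Esrrb was found in cells rich in rod transcripts. It was at 20 TPM or more in 23 of 86 kept cells with a rod sum of at least 1000 TPM and in 0 of 235 cells with less. At 1 TPM or more it was found in 60.5% and 2.13% of these cells. The split recurred in each group: Esrrb was at 1 TPM or more in 63.6% of 11 rod-rich and 0% of 48 other Ddit4l-only cells, in 60.5% of 43 and 1.85% of 108 Sox6-only cells, and in 66.7% of 18 and 2.38% of 42 Vsx1-only cells. Its r with the summed rod level, on the log2 scale, was 0.69, 0.60 and 0.66 within the 3 groups, against -0.28, 0.02 and 0.21 for Esrrg. Whether rod RNA came from a second cell in the well or from free RNA cannot be told apart here.

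**Figure D2:**
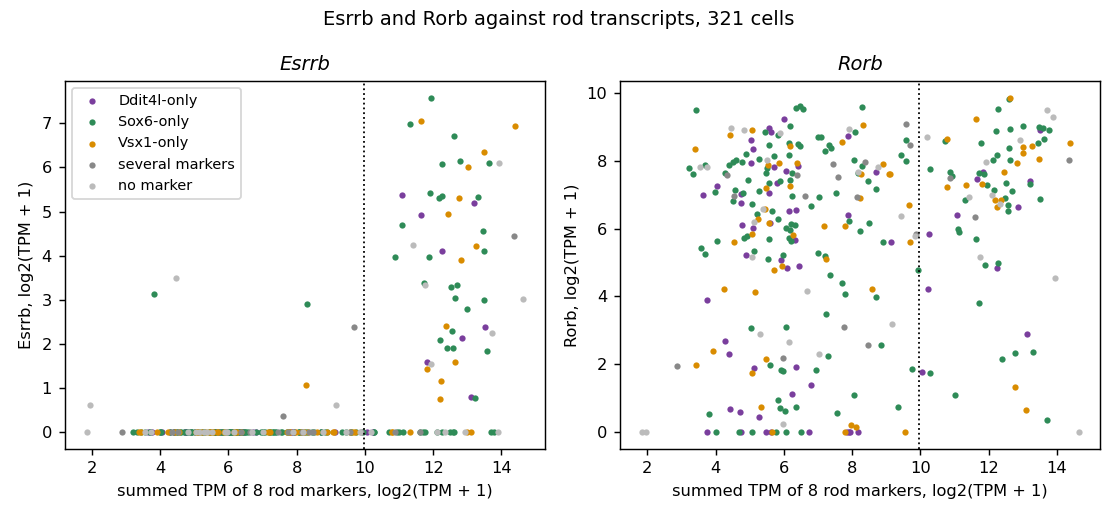
Level of Esrrb (left) and Rorb (right) in each of 321 kept cells against the summed level of 8 rod markers, both as log2(TPM + 1) and coloured by marker group, with a dotted line at a rod sum of 1000 TPM. Every cell with Esrrb at 20 TPM or more lies right of the line, while Rorb is found on both sides.

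Esrrb was at 0.238, 2.08, 2.61 and 0.810 CPM in Ddit4l-only cells of 1la, 1Ra, 2la and 2Ra. It was at 11.9, 2.95, 6.92 and 14.4 CPM in Sox6-only cells and at 19.3, 0.450, 6.94 and 14.2 CPM in Vsx1-only cells. Every Ddit4l-only value lay below every Sox6-only value, while the Vsx1-only values spanned both. Of 16431 genes, 4.3% were lower without overlap in Ddit4l-only than in Sox6-only cells. The log2 fold change was -2.52 ± 0.80 (SE) for Ddit4l-only minus Sox6-only cells (edgeR adjusted p = 0.566). It was -2.72 ± 0.81 for Ddit4l-only minus Vsx1-only cells (edgeR adjusted p = 0.318). For Sox6-only minus Vsx1-only cells it was -0.20 ± 0.75 (edgeR adjusted p = 0.999). The share of rod-rich cells moved the same way, at 18.6%, 28.5% and 30% of the Ddit4l-only, Sox6-only and Vsx1-only cells. Its part in the Esrrb difference was not tested, since without rod-rich cells Esrrb had too few counts for a fit. DESeq2 called Esrrb lower in Ddit4l-only than in Vsx1-only cells (adjusted p = 0.0188), in a fit that called 11% of all genes tested there and 5.53% as lower, and over all fits the adjusted p of this comparison ranged from 0.0188 to 0.988.

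Rora and Rorb were the receptors that most cells of every group carried, often together. Rora was at 20 TPM or more in 44 of 59 Ddit4l-only, 126 of 151 Sox6-only and 53 of 60 Vsx1-only cells, and Rorb in 37, 118 and 45 of them. Both were at 20 TPM or more in 47.5% of Ddit4l-only, 65.6% of Sox6-only and 66.7% of Vsx1-only cells, and neither in 10.2%, 3.97% and 3.33%. Per cell, the 2 genes were only weakly related (r = 0.12 over 321 cells, across cells and without a test). By length-scaled median, Rora stood at 159, 201 and 187 TPM and Rorb at 56.1, 131 and 113 TPM in the Ddit4l-only, Sox6-only and Vsx1-only cells, so in Ddit4l-only cells Esrrg was the member with the highest median and in Vsx1-only cells Rora was.

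Rorb was lowest in Ddit4l-only cells. It was at 209, 352, 274 and 112 CPM in Ddit4l-only cells of 1la, 1Ra, 2la and 2Ra. In Sox6-only cells it was at 474, 454, 569 and 475 CPM, and in Vsx1-only cells at 402, 394, 384 and 448 CPM. No 2 groups overlapped: every Ddit4l-only value lay below every other, and every Sox6-only value lay above every Vsx1-only value. Non-overlap of the 4 retinas is not rare in these data, since 4.3% of 16431 genes were lower in this way in Ddit4l-only than in Sox6-only cells, 4.27% lower than in Vsx1-only cells, and 4.55% higher in Sox6-only than in Vsx1-only cells. Besides Rorb and Esrrg, Esrrb was the other member without overlap, in the Ddit4l-only minus Sox6-only comparison. The log2 fold change of Rorb was -0.96 ± 0.19 for Ddit4l-only minus Sox6-only cells (edgeR adjusted p = 0.475), -0.64 ± 0.19 for Ddit4l-only minus Vsx1-only cells (adjusted p = 0.315) and 0.31 ± 0.19 for Sox6-only minus Vsx1-only cells (adjusted p = 0.768). DESeq2 gave an adjusted p of 0.0102 to the first with a fold change under the 2-fold limit, and the range over all fits was 0.0102 to 0.83. Rorb was also higher in rod-rich cells, with a median of 160 TPM in 86 of them and 76.7 TPM in the other 235. That gap lay within groups too, at 83.8 and 48.8 TPM in Ddit4l-only, 161 and 103 TPM in Sox6-only and 222 and 66.4 TPM in Vsx1-only cells. Without rod-rich cells the log2 fold change of Rorb was -0.90 for Ddit4l-only minus Sox6-only, -0.32 for Ddit4l-only minus Vsx1-only and 0.58 for Sox6-only minus Vsx1-only cells.

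Rora overlapped between all groups. It was at 186, 341, 344 and 227 CPM in Ddit4l-only cells of 1la, 1Ra, 2la and 2Ra. It was at 356, 584, 426 and 293 CPM in Sox6-only cells and at 348, 342, 388 and 387 CPM in Vsx1-only cells, whose 4 retinas were the closest together. The log2 fold change was -0.47 ± 0.19 for Ddit4l-only minus Sox6-only cells (edgeR adjusted p = 0.628), -0.32 ± 0.19 for Ddit4l-only minus Vsx1-only cells (adjusted p = 0.556) and 0.15 ± 0.19 for Sox6-only minus Vsx1-only cells (adjusted p = 0.933).

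**Figure D3:**
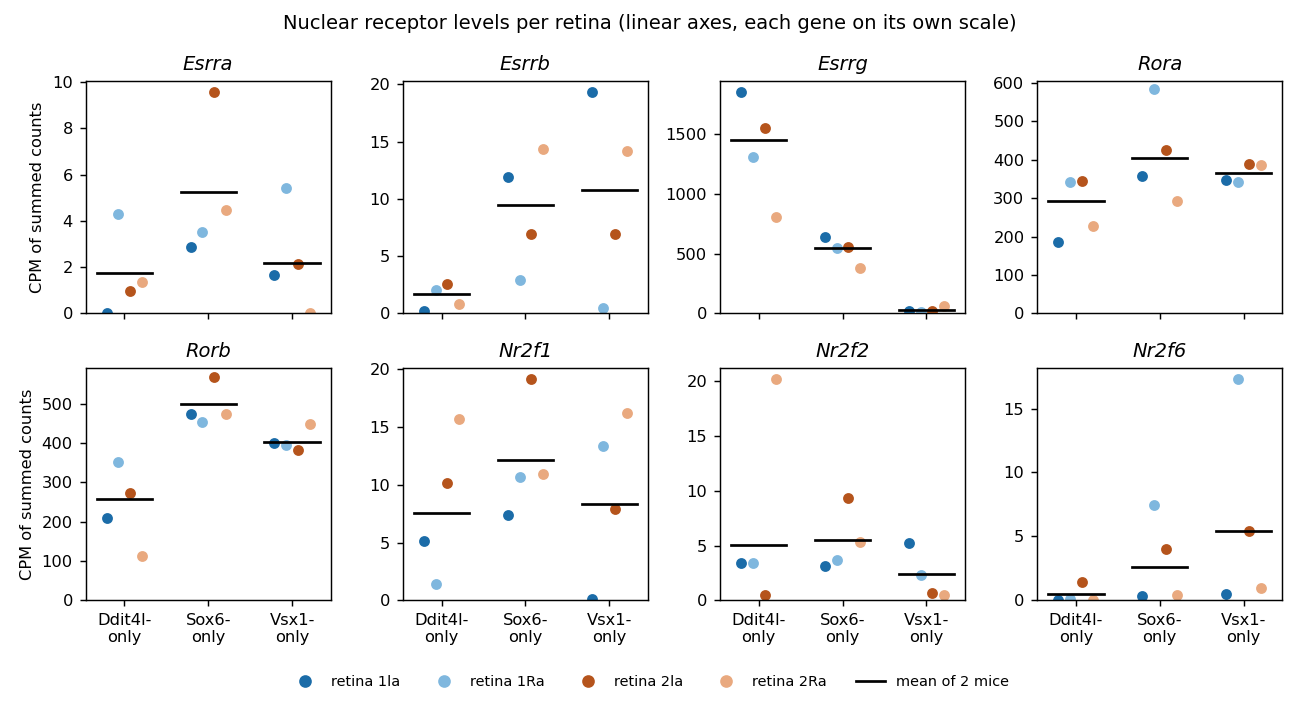
Level of each receptor in CPM of counts summed per retina (points) with the mean of 2 mice (line), for Ddit4l-only, Sox6-only and Vsx1-only cells, on a linear axis of its own for each gene. Esrrg steps down over the groups without overlap, Rorb is lowest in Ddit4l-only cells, and Esrra, Nr2f1, Nr2f2 and Nr2f6 stay under 21 CPM in every retina.

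The 3 COUP-TFs were found in few cells of any group. Nr2f1, also called COUP-TFI, was at 20 TPM or more in 28 of 321 kept cells, Nr2f2 (COUP-TFII) in 12 and Nr2f6 in 13, and the highest cell reached 466 TPM for Nr2f1, 192 TPM for Nr2f2 and 417 TPM for Nr2f6. No kept cell had Nr2f6 together with Nr2f1 or Nr2f2 at 20 TPM or more, and 3 cells had Nr2f1 together with Nr2f2. Genes held by so few cells would rarely meet even if unrelated. The number expected was not worked out, so nothing is read from these counts. Sums over such genes rest on single cells: 1 cell carried 60.7% of the Nr2f2 counts and 97.3% of the Nr2f6 counts of the Ddit4l-only group. Nr2f1 was at 5.16, 1.43, 10.1 and 15.7 CPM in Ddit4l-only cells of 1la, 1Ra, 2la and 2Ra, at 7.38, 10.6, 19.2 and 11 CPM in Sox6-only cells and at 0.103, 13.3, 7.89 and 16.2 CPM in Vsx1-only cells. Nr2f2 was at 3.41, 3.39, 0.514 and 20.3 CPM in Ddit4l-only cells, at 3.12, 3.71, 9.38 and 5.33 CPM in Sox6-only cells and at 5.28, 2.32, 0.712 and 0.480 CPM in Vsx1-only cells. Nr2f6 was at 0, 0.0651, 1.42 and 0 CPM in Ddit4l-only cells, at 0.312, 7.47, 3.99 and 0.388 CPM in Sox6-only cells and at 0.513, 17.3, 5.46 and 0.961 CPM in Vsx1-only cells. All groups overlapped for all 3 genes, and their edgeR adjusted p ranged from 0.501 to 0.9995 over the 3 comparisons.

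Some of these genes share bases with a neighbour on the other strand, and whether strand was used in counting is not given in the sources used here. Nr2f6 shares 1622 exonic bases with Ocel1: 16 of the 30 cells with Nr2f6 at 1 TPM or more also had Ocel1, which 8.72% of all kept cells had, and the r between them was 0.45. Nr2f6 values are therefore uncertain. Nr2f1 shares 123 bases with A830082K12Rik (r = 0.09), Esrra 73 bases with Trmt112 (r = 0.01), Rora 82 bases with Gm15511 (r = 0.03) and Nr2f2 643 bases with B130024G19Rik (r = 0.28). Esrrg, Esrrb and Rorb share no exonic bases with a gene of the table.

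Across the 3 comparisons, edgeR called 0 of the 7 members other than Esrrg in any. It called 0% of 16646 genes between Ddit4l-only and Sox6-only cells, 0.0421% between Ddit4l-only and Vsx1-only cells and 0% between Sox6-only and Vsx1-only cells, where a call needed an adjusted p under 0.05 and a 2-fold change. Of the marker genes, which differ by construction, only Ddit4l was called, between Ddit4l-only and Vsx1-only cells. Sox6 was not called between Ddit4l-only and Sox6-only cells, at 0.761 and 590 CPM. A missing call in this fit therefore says little about a gene. At an unadjusted p under 0.05 there were 1342, 2141 and 1429 genes. DESeq2 called 762, 1615 and 853 genes (5.18%, 11% and 5.8%), and edgeR on sums per retina called 66, 290 and 111 (0.402%, 1.76% and 0.676%). Of the 7 members, Esrrb in DESeq2 was the single call. With the mouse as a block, a p-value from sums per mouse rests on how far the group differences varied between 2 mice. With sums per retina it rests on how far they varied between retinas.

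**Figure D4:**
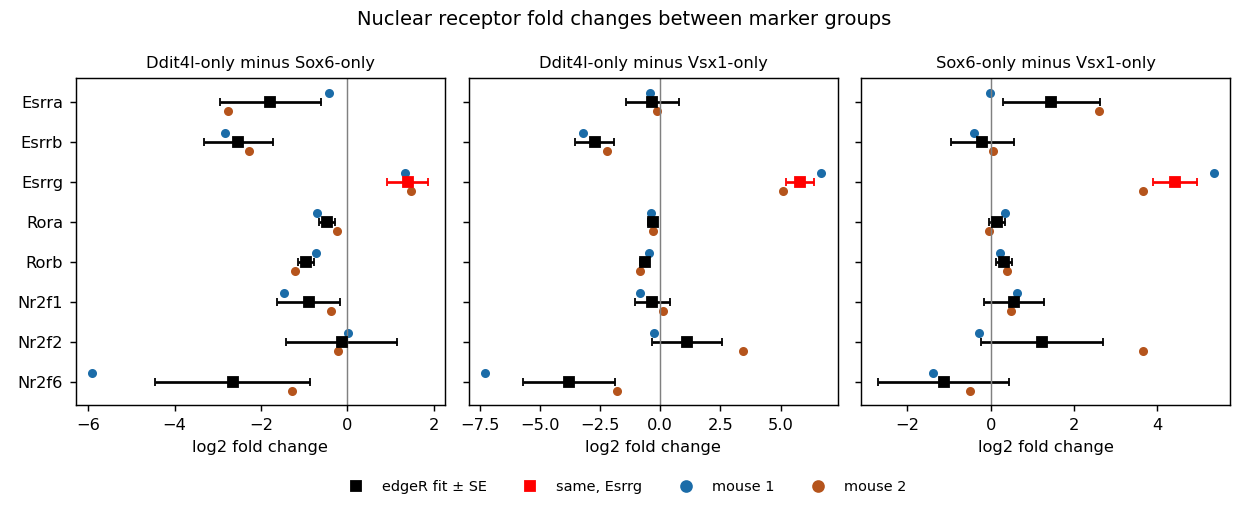
Log2 fold change of each receptor in the 3 comparisons, with the edgeR estimate and its SE (squares, Esrrg in red) and the value in each mouse alone (circles). The SE drawn for Esrrg is not read as a test, since Esrrg was chosen on these groups. Esrrg lies right of 0 in each panel, both mice have Rorb left of 0 in the first 2 panels and right of it in the third, and the mice diverge for Nr2f2 and Nr2f6.

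The rest of the receptor family was read through a list of 41 other nuclear receptors, of which 27 had enough counts. In edgeR, 0 were called in any comparison, and 5, 8 and 6 had an unadjusted p under 0.05 in the Ddit4l-only minus Sox6-only, Ddit4l-only minus Vsx1-only and Sox6-only minus Vsx1-only comparisons. Of all 16646 genes tested, 1342, 2141 and 1429 had such a p. The median log2 fold change of the 27 was -0.38, 0.11 and 0.76, against -0.08, -0.01 and 0.05 over all genes tested. Found at 1 TPM or more in most kept cells were 4 of the 41: Nr1d1 (82.2%), Thra (71.7%), Esr1 (70.1%) and Nr1d2 (62.6%). DESeq2 called 3 of the 27 in the first comparison, 7 in the second and 3 in the third, where it called 5.18%, 11% and 5.8% of all genes. The genes named next were picked after these calls were seen. Thrb, a thyroid hormone receptor, was at 71.3 and 120 CPM in Ddit4l-only, 36.3 and 38 CPM in Sox6-only and 11.8 and 14.4 CPM in Vsx1-only cells of mouse 1 and mouse 2, thus in the same order as Esrrg. Nr3c1, the glucocorticoid receptor, was at 35.3 and 40.8 CPM, 28.4 and 56 CPM, and 3.14 and 4.48 CPM in these groups. Nr3c2, the mineralocorticoid receptor, ran the other way, at 19.6 and 45.4 CPM, 39.3 and 55.9 CPM, and 113 and 101 CPM. So did Nr1d1, the clock repressor that binds where the retinoid-related orphan receptors do, at 129 and 95 CPM, 236 and 162 CPM, and 338 and 193 CPM. Nr1d1 was also called lower in Ddit4l-only than in Vsx1-only cells by edgeR on sums per retina, as were 0.986% of all genes. The edgeR adjusted p from sums per mouse for Ddit4l-only minus Vsx1-only cells was 0.134 for Thrb, 0.154 for Nr3c1, 0.254 for Nr3c2 and 0.187 for Nr1d1.

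In edgeR on sums per mouse, the partners and textbook targets of these receptors gave 0 calls. All 20 coactivators and corepressors of a list were tested, with a median log2 fold change of 0.01, 0.27 and 0.15 in the 3 comparisons. An unadjusted p under 0.05 was found for 1, 2 and 1 of them, and for 1342, 2141 and 1429 of all 16646 genes tested. Ncor1, a corepressor of unliganded receptors, was at 1 TPM or more in 86.6% of kept cells. Ppargc1a, the PGC-1 coactivator of the estrogen-related receptors, was at 1 TPM or more in 6.85% of them and was at 0.433 and 2.53 CPM in Ddit4l-only, 19.6 and 7.4 CPM in Sox6-only and 4.89 and 12.3 CPM in Vsx1-only cells of mouse 1 and mouse 2. Its relative Ppargc1b was found in 28.3% of kept cells. Nrip1, a corepressor of nuclear receptors, was at 114 and 129 CPM, 30.1 and 29.4 CPM, and 23.6 and 31.8 CPM, with an adjusted p of 0.412 against Sox6-only and 0.154 against Vsx1-only cells in edgeR and a call as higher in both in DESeq2. DESeq2 also called Ppargc1a lower in Ddit4l-only than in Sox6-only cells, and Tbl1xr1, a subunit of the corepressor complex, higher in Ddit4l-only than in Vsx1-only cells. It called 5.18% of all genes in the first of these comparisons and 11% in the second.

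Of 12 textbook targets of estrogen-related receptors 9 were tested, and their median log2 fold change was -0.17, -0.16 and 0.17 in the 3 comparisons. In edgeR on sums per mouse, 0 of them had an unadjusted p under 0.05, against 1342, 2141 and 1429 of all 16646 genes tested. Atp5b, a subunit of ATP synthase, was at 1595 and 1305 CPM in Ddit4l-only, 1752 and 1493 CPM in Sox6-only and 1403 and 1390 CPM in Vsx1-only cells of mouse 1 and mouse 2. Between Ddit4l-only and Vsx1-only cells the log2 fold change was 0.05 for Atp5b (edgeR adjusted p = 0.930), beside 5.82 for Esrrg.

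Of 8 clock genes tied to the retinoid-related orphan receptors 7 were tested. Their median log2 fold change was -0.85, -0.44 and 0.27. In edgeR on sums per mouse, 1, 2 and 1 of them had an unadjusted p under 0.05, against 1342, 2141 and 1429 of all 16646 genes tested. Per2, a clock repressor, was at 11.5 and 8.69 CPM in Ddit4l-only, 44.4 and 35.3 CPM in Sox6-only and 25.3 and 42.7 CPM in Vsx1-only cells. Dbp, an output gene of the clock, was at 33.5 and 17.4 CPM, 56.7 and 36.5 CPM, and 98.8 and 91.3 CPM, and edgeR on sums per retina called it lower in Ddit4l-only than in Vsx1-only cells, as it did 0.986% of all genes. DESeq2 called Per2 lower in Ddit4l-only than in Sox6-only cells, where it called 5.18% of all genes in either direction. It called Per2 and Dbp lower in Ddit4l-only than in Vsx1-only cells, where it called 5.53% of all genes lower. The adjusted p from sums per mouse in that comparison was 0.321 for Per2 and 0.200 for Dbp.

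The genes most like Esrrg were ranked by Pearson r of log2(TPM + 1) over 321 cells, among 8269 genes at 1 TPM or more in at least 10% of cells and with a mean of at least 10 TPM. The 8 highest were Nfia (r = 0.73), Cabp5 (0.73), Epha7 (0.71), Kcnh6 (0.70), Lhx4 (0.70), Meis2 (0.68), Lmo4 (0.57) and E130114P18Rik (0.57). Nfia, Lhx4 and Meis2 are transcription factors, Cabp5 is a calcium-binding protein of bipolar cells, Epha7 is an ephrin receptor and Kcnh6 is a potassium channel. The 5 lowest were Sec1 (-0.64), Tmsb10 (-0.63), Igfn1 (-0.62), Cabp2 (-0.62) and Vsx1 (-0.62). The marker genes Ddit4l (0.44) and Sox6 (0.28) ranked 24 and 87. Ranked in mouse 1 alone, all 8 of the highest were among the top 8, and in mouse 2 alone 6 were. The 8 had been picked on the cells of both mice together, so this is not an independent check. The other members were far from this pattern over all cells, with r between -0.11 and 0.07.

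Most of this likeness lay between the groups. Mean levels of Nfia were 651, 498 and 5.28 TPM in Ddit4l-only, Sox6-only and Vsx1-only cells, and those of Kcnh6 were 1577, 1853 and 52.7 TPM, so these genes separated the Vsx1-only cells but did not step between the other groups as Esrrg did. Meis2 did step, at 1092, 388 and 13.4 TPM. Within groups the correlations were smaller. In Ddit4l-only cells Epha7 (0.58) ranked 1 and Cabp5 (0.46) ranked 5 of all genes, whereas Lmo4 was at -0.06. Within Sox6-only cells the 8 genes had r of 0.09 to 0.27, and within Vsx1-only cells 0.02 to 0.38.

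**Figure D5:**
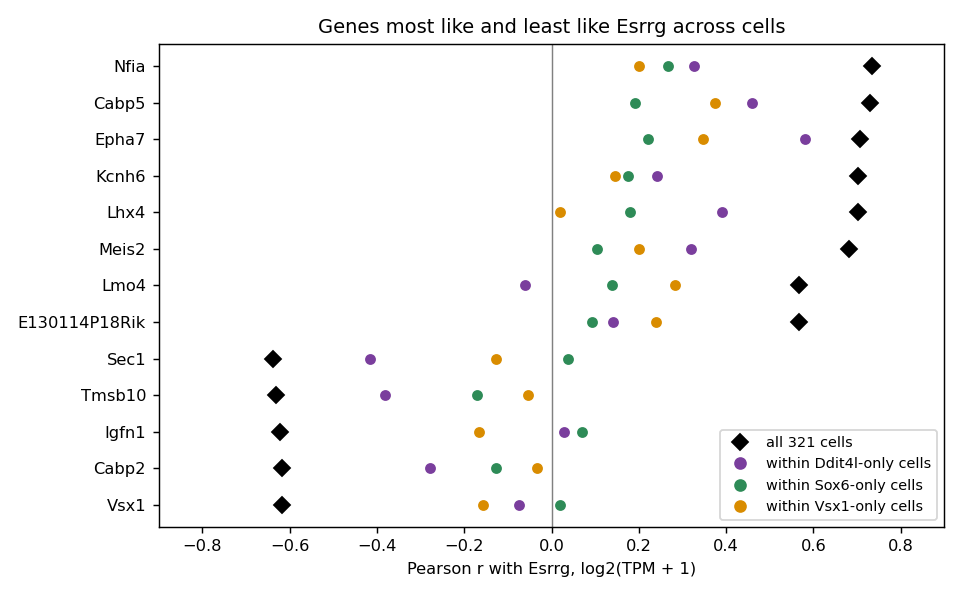
Pearson r with Esrrg of the 8 genes most like it and the 5 least like it, over all 321 kept cells (diamonds) and within Ddit4l-only, Sox6-only and Vsx1-only cells (circles), on log2(TPM + 1). The diamonds lie between 0.57 and 0.73 or between -0.64 and -0.62, and the circles lie nearer to 0.

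Most kept cells had more than 1 member, chiefly Esrrg, Rora and Rorb. Of 321 kept cells, 132 had 3 of the 8 at 20 TPM or more, 100 had 2, 42 had 1, 38 had 4, 7 had 5 and 2 had 0. Esrrg, Rora and Rorb were all at 20 TPM or more in 28 of 59 Ddit4l-only, 89 of 151 Sox6-only and 5 of 60 Vsx1-only cells. Thinning each cell to 200000 counts changed the share of cells with Esrrg little, to 100% of Ddit4l-only, 93.4% of Sox6-only and 30% of Vsx1-only cells, against 100%, 94.7% and 30% at 1 TPM or more without thinning.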

How the data were processed

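The submitters' processing notes name mm10 as the assembly and RSEM 1.2.28 and TopHat2 2.0.10 as tools. The gene annotation and the use of strand are not given in the sources used here. The authors deposited RSEM expected counts, which are not normalised, and TPM, for 383 of 384 cells. The remaining cell was not analysed here. Expected counts were rounded, summed per mouse and marker group and tested with edgeR 4.0.16 (R 4.3.3, limma 3.58.1, quasi-likelihood, TMM, filterByExpr). The mouse entered as a block because the cells of all groups come from the same 2 animals. All 3 groups shared 1 estimate of the spread. Genes at a Benjamini-Hochberg adjusted p under 0.05 over all genes and at least 2-fold apart were called. DESeq2 1.42.0, sums per retina and other settings were alternatives. CPM were computed here with TMM-scaled library sizes. The SE of a log2 fold change was computed as its absolute value over the square root of the edgeR F statistic. The fits were tested on simulated data. Kept cells held 203657 to 1945582 counts, and no 2 had log2 counts correlated above 0.77.

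Members, gene lists and tests were chosen with earlier results of these data known, from a report on all genes that already showed Esrrg to differ between similar groups. Named genes were the members, the markers, the 8 highest and 5 lowest by r with Esrrg, with the same sign in both mice, and list members called in a comparison. Cells were named by no subtype, and doublets were not called. Zinc finger bases were found by a search of protein-coding GENCODE transcripts.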

Additional observations from a re-analysis of the deposited data

Results flagged for a closer look

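In 2 of 24 groups of 4 retinas, 1 retina stood far from the others. The rule used flags about 1 in 20 groups when values are normally distributed. Low sums that rest on single cells need not be, so nothing is read from the count. Nr2f2 was at 20.25 CPM in Ddit4l-only cells of retina 2Ra and between 0.514 and 3.41 CPM in the other retinas, and 1 cell of 2Ra carried 60.7% of the counts of that group. Nr2f6 was at 1.424 CPM in Ddit4l-only cells of retina 2la and between 0 and 0.0651 CPM in the others, with 97.3% of its counts in 1 cell of 2la.

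In 4 of 24 pairs of a gene and a comparison, each looked at between mice and between la and Ra retinas, a difference between marker groups had one sign in both Ra retinas and the other in both la retinas. With signs drawn at random such a split is not rare over so few retinas. The number expected was not worked out, so nothing is read from the count. The sizes that follow are the mean log2 difference of the la retinas minus that of the Ra retinas. For Nr2f1, the mean in la retinas was above that in Ra retinas by 3.23 for Ddit4l-only minus Vsx1-only cells and by 2.90 for Sox6-only minus Vsx1-only cells. For Nr2f2, Ddit4l-only minus Vsx1-only cells, la minus Ra was -2.84, and for Esrrb, Sox6-only minus Vsx1-only cells, it was -1.28. The Esrrb case rests on mouse 1, with -0.674 in retina 1la and 1.86 in 1Ra, against -0.00402 in 2la and 0.0202 in 2Ra of mouse 2. Of Nr2f1, Ddit4l-only minus Vsx1-only cells, mouse 2 likewise gave only 0.34 in 2la and -0.0447 in 2Ra. These differences were not tested, and Nr2f1 and Nr2f2 rest on few cells.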

How the results depend on the processing

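Of 405 log2 fold changes of members under alternative settings, 21 turned direction and 1 came past the threshold for a call. The count of members called was 0 in each comparison and setting with a test, except 1 (Esrrb, Ddit4l-only minus Vsx1-only cells) with DESeq2. Genes called in the Ddit4l-only minus Sox6-only, Ddit4l-only minus Vsx1-only and Sox6-only minus Vsx1-only comparisons numbered 0, 7 and 0. They numbered 762, 1615 and 853 with DESeq2, 66, 290 and 111 with sums per retina, and 2, 62 and 16 with no replicate block for the mouse. The second comparison gave 4 calls at 5000 genes per cell, 4 at a marker threshold of 50 TPM, 0 without rod-rich cells, and 0 to 11 without 1 retina (0 without 1la, 0 without 1Ra, 11 without 2la, 4 without 2Ra). The third gave 3 calls without a filter on low counts and 1 at 50 TPM. Without a mouse no residual degrees of freedom were left, so no calls were counted.

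Signs turned for members with few counts or small differences, and the cause was not tested. With 1 retina or mouse left out, Nr2f2 ranged from -2.54 to 1.39 (Ddit4l-only minus Sox6-only), from -0.31 to 3.44 (Ddit4l-only minus Vsx1-only) and from -0.29 to 3.64 (Sox6-only minus Vsx1-only). In the last comparison Esrra ranged from -0.0231 to 2.60, Esrrb from -0.46 to 0.89, Rora from -0.0457 to 0.36 and Nr2f1 from -0.0518 to 2.24, and in the one before it Esrra from -2.41 to 0.95 and Nr2f1 from -1.39 to 1.77. Nr2f2 for Ddit4l-only minus Sox6-only cells was 0.00911 at a marker threshold of 10 TPM and 0.11 with mean TPM over cells, and for Ddit4l-only minus Vsx1-only cells -0.69 without rod-rich cells. Nr2f1 for Ddit4l-only minus Vsx1-only cells was 0.0217 with sums per retina. With mean TPM, Sox6-only minus Vsx1-only was -0.0143 for Nr2f1 and 0.0634 for Nr2f6. Correlations with Esrrg changed sign within groups for Lmo4 (-0.0604, Ddit4l-only), Igfn1 (0.0289, Ddit4l-only, and 0.0703, Sox6-only), Sec1 (0.0379, Sox6-only) and Vsx1 (0.0203, Sox6-only). With 2 mice, how large a difference could be detected in genes found in few cells was not measured. A missing call for such a gene does not show equal levels.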
